A study of Mus musculus with 24 samples.

Results

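The Ly6 surface protein family was followed through RNA sequencing of mouse intestinal organoids. The rule named 10 Ly6 genes of chromosome 15 (Ly6a, Ly6c1, Ly6c2, Ly6d, Ly6e, Ly6f, Ly6g, Ly6i, Ly6k and Ly6m) out of 45706 gene identifiers, and all 10 had an identifier in the count tables of both tissues, Ly6m as 2010109I03Rik. Organoids from colon (COL) or small intestine (SI) of C57BL/6N mice carried BraffloxV600E/+;Villin::CreERT2 (BRAF), Trp53LSL-R172H/+;Villin::CreERT2 (p53) or both knock-in alleles with Villin::CreERT2 (BRAFp53). CreERT2 under the Villin promoter acts in intestinal epithelium, and 4-hydroxytamoxifen (4-HT) for 24 h switched the alleles to BRAFV600E, a constitutively active kinase, and p53R172H, a missense form of p53, which guards against tumours. Induced organoids are called on, and ethanol-treated, non-induced organoids are called off. COL received 3.5 µM 4-HT with RNA taken on day 3, SI received 0.5 µM with RNA on day 8, and each of the 12 groups held 2 libraries. Each genotype was 1 donor culture per tissue, so genotype and culture cannot be told apart. The SDs below and the SEs of on against off measure the spread between libraries of a culture. For the SEs the groups of a fit share 1 estimate of that spread. The SEs of off COL against off SI measure the spread between cultures. The family was taken up because of its on against off values, so those changes are given as a description, as log2 fold change ± SE with its call and without a p.

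Ly6 proteins are small glycoproteins of the LU-domain superfamily, folded into loops held by disulphide bonds, and most are tethered to the outer membrane by a GPI anchor. In blood they are used as lineage markers. Ly6a, known as Sca-1, marks haematopoietic stem cells, Ly6g marks neutrophils, and Ly6c1 and Ly6c2 mark monocytes and some endothelium. In the intestine Ly6a is known as a marker of the fetal-like state of repairing epithelium, and Ly6e is a broadly expressed, interferon-responsive member.

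The 10 genes lie in 1 region of chromosome 15 in mm10 (GRCm38; positions from GENCODE M21). In order along the chromosome they are Ly6d (chr15:74762056-74763620, - strand), Ly6k (chr15:74796874-74799986, -), Ly6m (chr15:74876987-74897021, -), Ly6e (chr15:74955051-74959905, +), Ly6i (chr15:74979534-74983430, -), Ly6a (chr15:74994877-74998031, -), Ly6c1 (chr15:75044018-75048830, -), Ly6c2 (chr15:75108158-75111970, -), Ly6g (chr15:75155240-75159126, +) and Ly6f (chr15:75268421-75272235, +). Ly6a, Ly6c1, Ly6c2, Ly6f, Ly6g and Ly6i form a group of similar sequences. Their first 90 coding bases are shown because they let a reader see how few bases separate these genes at the start of the coding sequence, with capitals where a base differs from Ly6a.
Ly6a: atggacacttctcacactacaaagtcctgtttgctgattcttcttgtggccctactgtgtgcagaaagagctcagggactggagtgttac
Ly6i: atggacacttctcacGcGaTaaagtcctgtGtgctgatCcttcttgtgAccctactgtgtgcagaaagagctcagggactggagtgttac
Ly6c1: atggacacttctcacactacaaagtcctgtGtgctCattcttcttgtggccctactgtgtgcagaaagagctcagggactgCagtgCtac
Ly6c2: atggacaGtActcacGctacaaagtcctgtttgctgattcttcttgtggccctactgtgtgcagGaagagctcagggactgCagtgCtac
Ly6g: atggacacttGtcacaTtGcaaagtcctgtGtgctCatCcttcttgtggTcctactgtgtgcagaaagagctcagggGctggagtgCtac
Ly6f: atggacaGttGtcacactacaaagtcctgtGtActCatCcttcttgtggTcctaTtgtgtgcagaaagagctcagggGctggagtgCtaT
Over these 90 bases Ly6c1 differed from Ly6a at 4 places, Ly6c2 and Ly6i at 6, Ly6g at 9 and Ly6f at 11.

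Over the whole coding sequence Ly6c1 and Ly6c2 were 97.7% identical, Ly6a and Ly6i 86.4%, Ly6a and Ly6f 84.4%, and Ly6a and Ly6g 83.2%. Ly6d, Ly6e, Ly6k and Ly6m were at most 53.9% identical to any other member. For a 50-base stretch, 32.8% of the positions of Ly6c1, 19.0% of Ly6a and 14.5% of Ly6c2 also occurred in another gene's transcripts, so that counts of these 3 genes are uncertain where such reads were split or dropped. For a 100-base stretch the shares were 10.1%, 1.45% and 5.81%. The 50-base share was 5.32% for Ly6m, 4.76% for Ly6i, 0.448% for Ly6g and 0% for Ly6d, Ly6e and Ly6f. For Ly6k it was 32.7%, all shared with the antisense gene Gm17189 that overlaps it, and it is not known here whether counting used strand.

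**Figure D1:**
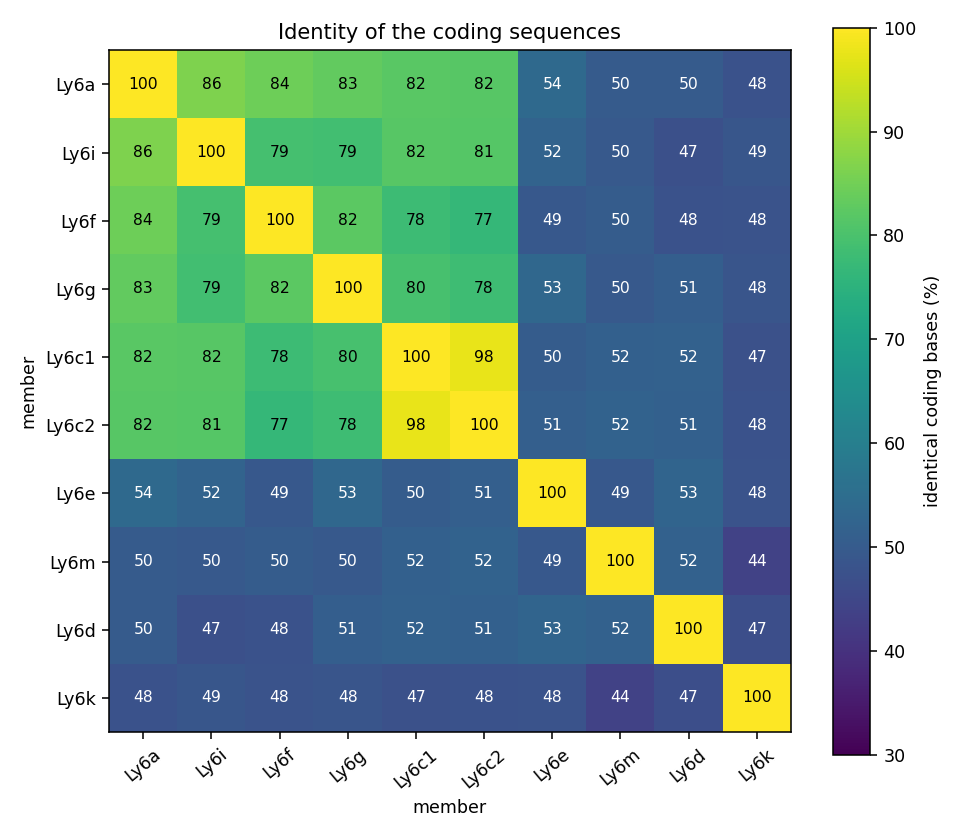
Share of identical coding bases (%, colour and printed value) for each pair of the 10 members (both axes list the members). Ly6a, Ly6i, Ly6f, Ly6g, Ly6c1 and Ly6c2 form 1 block, with Ly6c1 and Ly6c2 closest at 97.7%, and the other 4 members stand apart from it and from each other.

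RefSeq promoter sequence (build GRCm38.p6) was at hand for 4 members, Ly6c1, Ly6c2, Ly6f and Ly6g. The 250 bases before the start are shown for the pair of near copies Ly6c1 and Ly6c2, which differed in level, and for Ly6g, which moved with Ly6c1. Capitals mark TATAAA. Ly6g is at chr15:75155011-75155260 (+ strand), Ly6c1 at chr15:75048838-75049087 (- strand) and Ly6c2 at chr15:75111972-75112221 (- strand).
Ly6g: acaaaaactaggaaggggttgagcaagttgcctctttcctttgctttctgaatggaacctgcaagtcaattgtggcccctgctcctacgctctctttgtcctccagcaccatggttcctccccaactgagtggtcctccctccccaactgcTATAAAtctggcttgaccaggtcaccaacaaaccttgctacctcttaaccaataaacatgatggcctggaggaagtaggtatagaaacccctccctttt
Ly6c1: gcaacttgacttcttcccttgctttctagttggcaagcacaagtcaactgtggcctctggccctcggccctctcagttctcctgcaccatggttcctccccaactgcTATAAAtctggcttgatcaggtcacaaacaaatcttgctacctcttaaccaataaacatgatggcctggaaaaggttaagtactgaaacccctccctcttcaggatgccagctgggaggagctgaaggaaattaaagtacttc
Ly6c2: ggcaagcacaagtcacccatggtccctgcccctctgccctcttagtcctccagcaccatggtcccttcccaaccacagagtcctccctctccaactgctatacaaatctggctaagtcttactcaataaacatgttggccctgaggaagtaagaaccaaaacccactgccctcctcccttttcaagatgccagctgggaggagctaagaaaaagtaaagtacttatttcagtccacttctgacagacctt
TATAAA was found once in Ly6g, at -99 from the start, once in Ly6c1, at -143, and once in Ly6f, at -169, while the letters did not occur in the window of Ly6c2. It occurred in 12.97% of 27025 promoters of the same length. The letters TGANTCA (AP-1), TTCNNNGAA (STAT), GGAATG (TEAD), the ISRE-like motif of interferon responses and CCGGAAGT (ETS), searched on both strands, were not in these 4 windows and occurred in 6.87%, 7.18%, 12.6%, 3.04% and 2.93% of all promoters. Ly6a, Ly6d, Ly6e, Ly6i, Ly6k and Ly6m had no entry.

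COL libraries held 51174821 to 78175143 counts and SI libraries 44350747 to 68214835. Levels are CPM, counts per 1000000 counts of a library, scaled by TMM within a tissue, and 3 counts, taken as the detection floor of a library, correspond to about 0.0384 to 0.0676 CPM before that scaling. Epithelial markers were high in every library, with Epcam at 363 to 720 CPM. Of 12 blood cell markers, Csf3r, Mpo and Elane were at or under 3 counts in all 24 libraries, and Ptprc did not exceed 1.64 CPM. The sum of the 12 was 7.14 to 14.6 CPM over the COL libraries. The 7 endothelial and stromal markers summed to at most 2.51 CPM in any library. Sis, an SI brush border enzyme, stood at 1925 to 6330 CPM in SI and at 10.95 to 499 CPM in COL, with the COL BRAF culture highest. Apoa4, Lct and Gata4 were likewise higher in SI, whereas Lyz1, the other SI marker listed, stood at 255 to 1904 CPM in COL and 36.4 to 139 CPM in SI. Braf (10.7 to 63.5 CPM) and Trp53 (136 to 449 CPM) were present in every library, and counts per gene do not show which allele was read. One library stood apart. SI BRAF on replicate 1 had 15.4 CPM of Xist, against at most 0.437 CPM in the other 3 SI BRAF libraries and 104 to 150 CPM in the SI p53 and BRAFp53 cultures. Ddx3y, a Y chromosome gene, stood at 30.5 to 36.2 CPM in all 4 SI BRAF libraries and at most 0.0582 CPM in the other SI libraries. Whether that library also held RNA of another culture was not tested, and the SI BRAF response of each member tested is also given without it.

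Before induction the family was far higher in COL than in SI. Counts of both off libraries were added per culture, and 3 COL cultures were compared with 3 SI cultures (edgeR quasi-likelihood test, Benjamini-Hochberg adjusted over 17789 genes). The paper's methods name 3 donor mice, 1 per genotype, so COL and SI cultures of a genotype may share a donor, which this test left out. In it 6 of the 7 members tested were higher in COL, against 17.0% of all genes tested. With genotype as a block the same 6 were called, beside 3475 of 17789 genes in either direction. For those 6 every COL off library lay above every SI off library, as for 14.9% of genes. Ly6g, Ly6c1 and Ly6d, at 0 to 38 counts in the SI off libraries, passed the filter only through COL, where they were high, so their calls and the count of 6 are a description and no test. With at least 10 counts required in every culture, Ly6a, Ly6m and Ly6e were the members left, and all 3 were called. Of all genes then tested 4515 of 14520 were called in either direction. The log2 difference was 9.26 ± 0.97 (SE) for Ly6a (adjusted p = 0.00187), 6.15 ± 0.51 for Ly6m (adjusted p = 0.00116) and 1.94 ± 0.47 for Ly6e (adjusted p = 0.0223), by the same edgeR test. As a description, it was 8.39 ± 1.04 for Ly6c1 and 6.71 ± 0.83 for Ly6d. The off libraries also entered the on against off values on which the family was chosen, with earlier results known. The 3 p values above are therefore no independent test of the family. Ly6g had 0 counts in all 6 SI off libraries, so that it was at least 794-fold higher in COL against the floor of 3 counts per library. Ly6f, near the floor in both tissues, did not pass (log2 difference 0.00 ± 1.35). The call of Ly6e was lost without the COL BRAF, the COL p53 or the SI p53 culture, and Ly6g was not called by limma-voom. Wnt3a and the GSK3 inhibitor CHIR99021, which both raise Wnt signalling, were in the culture medium of COL and not of SI, so that medium and day of RNA isolation cannot be told apart from tissue in these off values.

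Within COL the 3 off cultures also differed in level. Ly6a stood at 137 and 153 CPM in the BRAF culture, at 280.0 and 354 CPM in BRAFp53 and at 586 and 744 CPM in p53. Ly6g followed the same order with 5.004 and 7.22, 25.6 and 39.9, and 97.4 and 121 CPM, and Ly6c1 did so in its means. For Ly6a and Ly6g no library of 1 culture overlapped another culture. With 1 culture per genotype, these off differences cannot be told apart from differences between donors.

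**Figure D2:**
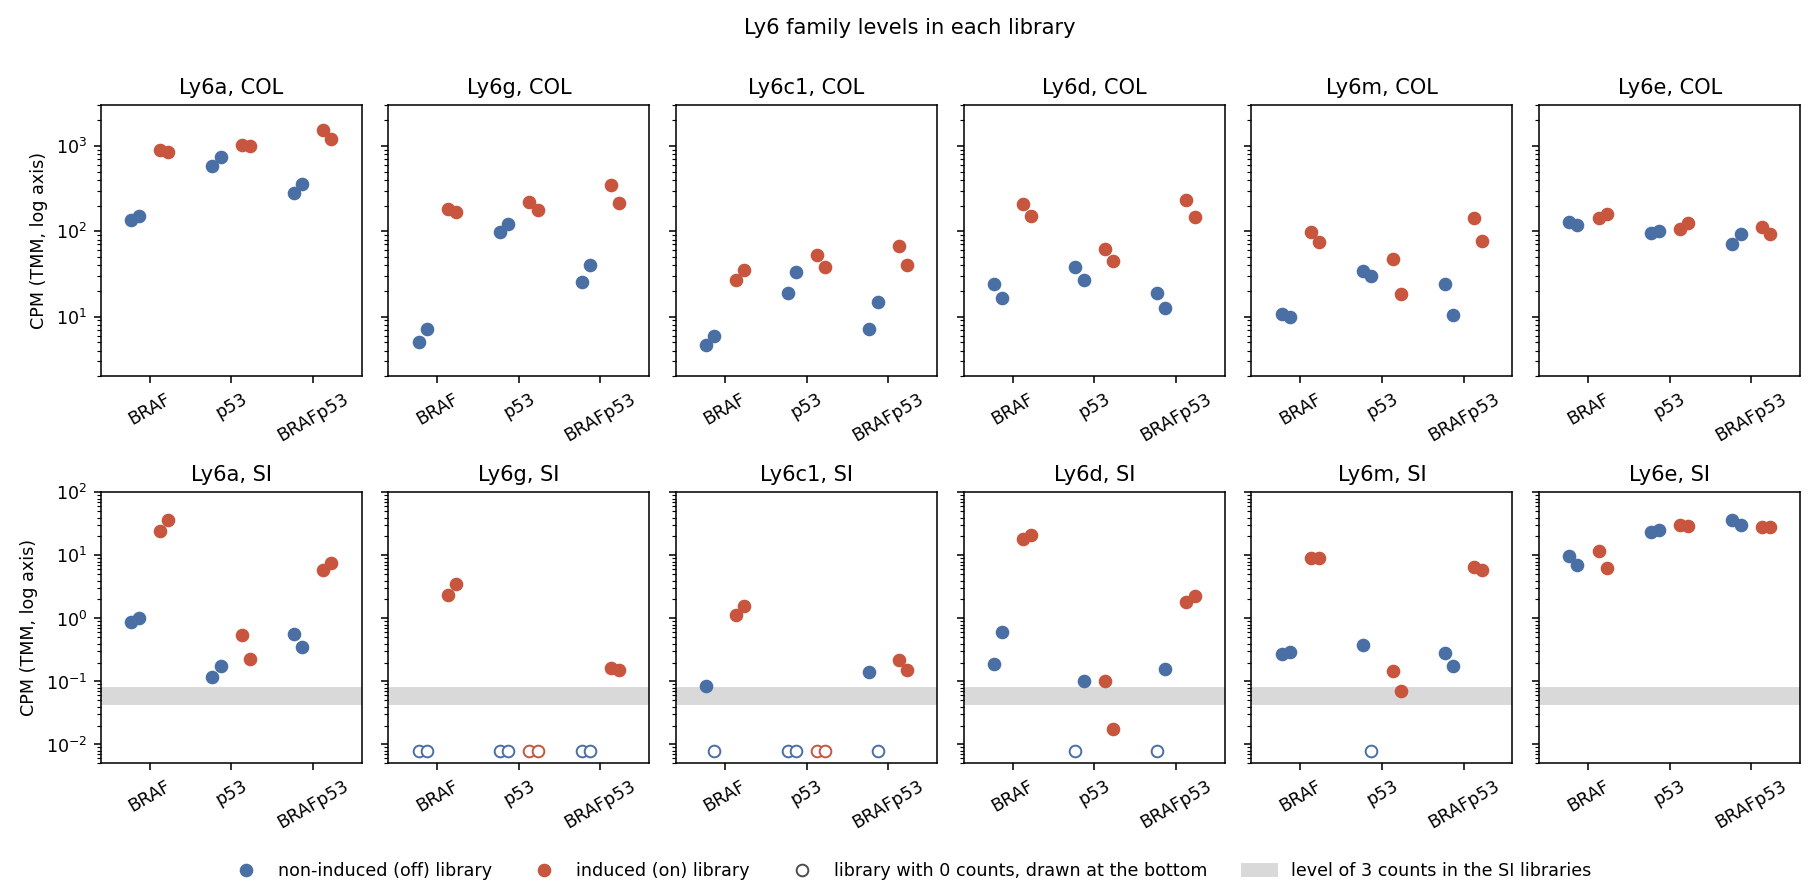
Level (CPM, log axis) of 6 members in each library, COL in the upper and SI in the lower row, by genotype, with off libraries in blue and on libraries in red. Open circles drawn at the bottom are libraries with 0 counts, and the grey band is the level of 3 counts in SI. Ly6a, Ly6g, Ly6c1, Ly6d and Ly6m stand higher in on than in off libraries of the COL BRAF and BRAFp53 cultures and of the SI BRAF culture, while Ly6e lies between 70.0 and 157 CPM in COL and between 6.30 and 36.9 CPM in SI.

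Ly6a was the most abundant member in every COL group. Per kilobase of merged exon, its mean level was 120.0 CPM in COL BRAF off, followed by Ly6e at 33.0, Ly6d at 27.4 and Ly6g at 6.49. In COL BRAF organoids Ly6a went from 137 and 153 CPM off to 901 and 851 CPM on, a 6.06-fold change (log2 2.599 ± 0.16). In COL BRAFp53 it went from 280.0 and 354 to 1554 and 1212 CPM (log2 2.12 ± 0.16). In COL p53 it went from 586 and 744 to 1033 and 1008 CPM (log2 0.62 ± 0.15, not called). On and off libraries did not overlap in any of the 3 cultures. All COL on libraries lay between 851 and 1554 CPM, although the off levels they came from differed more widely.

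In SI, Ly6a was low before induction. It went from 0.885 and 1.004 CPM to 24.8 and 35.9 CPM in BRAF, a 32.1-fold change (log2 4.998 ± 0.35), and the log2 change was 5.26 ± 0.37 without the library that carried Xist. In SI BRAFp53 it went from 0.566 and 0.356 to 5.81 and 7.69 CPM (log2 3.87 ± 0.36). In SI p53 the 4 libraries held 8 and 12 counts off and 38 and 13 counts on (log2 1.42 ± 0.49, not called). The SI BRAF on libraries, scaled within SI, stayed below the 137 CPM of the lowest COL library, scaled within COL.

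Ly6c1 moved like Ly6a at a lower level. In COL BRAF it went from 4.63 and 5.91 to 26.8 and 35.1 CPM (log2 2.55 ± 0.39) and in COL BRAFp53 from 7.20 and 14.995 to 66.6 and 40.3 CPM (log2 2.27 ± 0.37), with no overlap. In COL p53 it stood at 18.8 and 33.0 CPM off and 52.8 and 37.7 CPM on (log2 0.81 ± 0.36, not called). SI BRAF held 4 and 0 counts off and 57 and 62 counts on (log2 5.06 ± 1.45, called, but not by DESeq2 nor without SI BRAF off or on replicate 2). The value was 5.28 ± 1.79 without the library that carried Xist, and 3.98 to 9.33 over the fits without 1 library of the culture, where 9.33 was fitted with 0 off counts left. SI BRAFp53 held 8 and 0 against 12 and 10 counts and was not called, and SI p53 had 0 counts in all 4 libraries.

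Ly6g had the largest COL BRAF change of the members called. It went from 5.004 and 7.22 CPM to 182 and 168 CPM, a 28.6-fold change (log2 4.84 ± 0.30), and was 4.60 to 5.12 on the log2 scale when a library was left out. In COL BRAFp53 it went from 25.6 and 39.9 to 344 and 212 CPM, an 8.49-fold change (log2 3.09 ± 0.27). In COL p53 it stood at 97.4 and 121 CPM off and 219 and 175 CPM on (log2 0.85 ± 0.25, not called). The on levels of the 3 COL cultures overlapped between neighbours in their order, at 175 ± 9.85 CPM (SD, n = 2) in BRAF, 197 ± 30.8 in p53 and 278 ± 93.1 in BRAFp53, whereas the off levels did not.

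Ly6g had 0 counts in all 6 off libraries of SI and in both SI p53 on libraries. SI BRAF on libraries held 119 and 137 counts (2.38 and 3.54 CPM), at least 52.9-fold above the floor of 3 counts per library, and Ly6g was called there also without the library that carried Xist. SI BRAFp53 on libraries held 9 and 10 counts, at least 2.96-fold above it. Both changes were called, the second not when SI BRAFp53 off replicate 1 or 2 or on replicate 2 was left out, nor with the replicate number as a block or under limma-voom. Ly6g marks neutrophils in blood, so the blood cell markers are given beside it. Their sum went from 7.27 and 7.66 CPM off to 20.6 and 29.5 CPM on in SI BRAF, with Itgam at 5.14 and 6.77 CPM off and 14.6 and 20.8 on, and S100a9 at no more than 0.0211 CPM off and 2.74 and 3.56 on. S100a8, Csf3r, Mpo and Elane were at or under 3 counts in every SI library, and Ptprc at or under 0.02003 CPM in the SI BRAF libraries. In COL BRAF the marker sum was 7.76 to 9.45 CPM off and 10.1 to 11.6 CPM on, where Ly6g stood at 182 and 168 CPM on. It was 7.14 to 7.46 CPM off and 13.5 to 14.6 on in COL BRAFp53, and 3.56 to 5.89 off and 13.6 to 16.1 on in SI BRAFp53. Most of the on sum was Cd68 in COL BRAFp53 (2.73 and 3.99 CPM off, 13.2 and 11.4 on). In SI BRAFp53 most of it was Csf1r (0.407 and 1.58 CPM off, 7.83 and 9.82 on). Of 4 blood cell markers tested per tissue, 3 were called higher in SI BRAF, 2 in SI BRAFp53, 1 in COL BRAF and 1 in COL BRAFp53. Of all genes 17.5%, 6.98%, 10.3% and 9.95% were called higher in these arms. What part such cells had in the Ly6g values was not tested, and in these bulk libraries more cells of a type and more RNA per cell cannot be told apart.

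Ly6d, known from lymphocyte progenitors and keratinocytes, was low off and high on in COL with BRAFV600E. It went from 24.3 and 16.5 to 207 and 152 CPM in COL BRAF (log2 3.14 ± 0.31) and from 18.8 and 12.6 to 233 and 149 CPM in COL BRAFp53 (log2 3.60 ± 0.32). COL p53 libraries held 38.0 and 26.8 CPM off and 61.9 and 44.4 CPM on (log2 0.72 ± 0.29, not called). In SI BRAF it went from 0.190 and 0.616 to 18.3 and 21.4 CPM (log2 5.57 ± 0.67), and 5.70 ± 0.79 without the library that carried Xist. It was 5.001 without SI BRAF off replicate 1 and 6.69 without off replicate 2, and called in both fits. In SI BRAFp53 it went from 0 and 9 counts to 102 and 149 counts (log2 4.65 ± 0.80), called in every fit without 1 library, with values from 3.67 to 9.91, the highest of them without SI BRAFp53 off replicate 2, which leaves 0 off counts and a fitted value that depends on the prior count. Per kilobase, the SI BRAF on level of Ly6d (26.6) was close to that of Ly6a (25.2), whereas in COL BRAF on it was 241 against 727.

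Ly6m rose with Ly6d in the arms with BRAFV600E. It went from 10.6 and 9.84 to 97.9 and 74.2 CPM in COL BRAF (log2 3.07 ± 0.47) and from 24.3 and 10.3 to 143 and 76.4 CPM in COL BRAFp53 (log2 2.66 ± 0.46). In COL p53 the groups overlapped, at 33.8 and 29.97 CPM off and 46.8 and 18.5 CPM on (log2 0.03 ± 0.43). In SI it went from 0.274 and 0.292 to 9.03 and 9.08 CPM in BRAF (log2 4.99 ± 0.71, and 5.01 ± 0.80 without the library that carried Xist) and from 0.283 and 0.178 to 6.48 and 5.87 CPM in BRAFp53 (log2 4.73 ± 0.72). SI p53 held 26 and 0 counts off and 10 and 4 counts on.

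Ly6e was not called in any of the 6 comparisons of on with off. Its log2 fold changes were 0.26 ± 0.15 in COL BRAF, 0.25 ± 0.15 in COL p53, 0.33 ± 0.15 in COL BRAFp53, 0.13 ± 0.24 in SI BRAF, 0.29 ± 0.23 in SI p53 and -0.27 ± 0.23 in SI BRAFp53. The SI BRAF value turned to -0.40 ± 0.22 without the library that carried Xist, and to -0.12 without SI BRAF off replicate 2, neither of them called. Its levels ran from 70.0 to 157 CPM in COL and from 6.30 to 36.9 CPM in SI. In SI it was lowest in the BRAF culture, at 8.43 ± 2.12 CPM off and 9.14 ± 4.02 on (SD, n = 2), and all 4 libraries of that culture lay below all 8 of the other SI cultures. The groups of Ly6e overlapped in COL BRAFp53 and SI BRAF.

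Ly6c2, Ly6f, Ly6i and Ly6k had at most 75 counts in any library. Ly6k had a single count in 1 of 24 libraries and passed no filter, and Ly6c2 and Ly6i passed it in COL only. Ly6c2, nearly identical to Ly6c1 in its coding sequence, had at most 53 counts in a library, against up to 4899 for Ly6c1. It held 0 and 0 counts in COL BRAFp53 off and 48 and 53 counts on, at least 16.7-fold above the floor, and was called there, but in none of the 4 fits that left out 1 library of that arm. In COL BRAF it held 0 and 9 counts off and 0 and 0 on. Ly6f held 1 and 0 counts in COL BRAFp53 off and 24 and 34 on, and was called, though not without off or on replicate 2 nor with the replicate block. In SI BRAF it held 0 and 0 counts off and 2 and 19 on, called, though not by limma-voom nor without on replicate 2, off replicate 1 or off replicate 2. It was called without the library that carried Xist, which held 2 of those counts. In SI p53 it held 0 and 0 counts off and 21 and 25 on, at least 8.35-fold above the floor, called by DESeq2 and by edgeR with no filter on low counts but not by edgeR with the filter. Ly6i held 1 and 1 counts in COL BRAF off and 12 and 17 on, not called with all COL libraries in the fit but called with the 4 libraries of that culture alone.

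**Figure D3:**
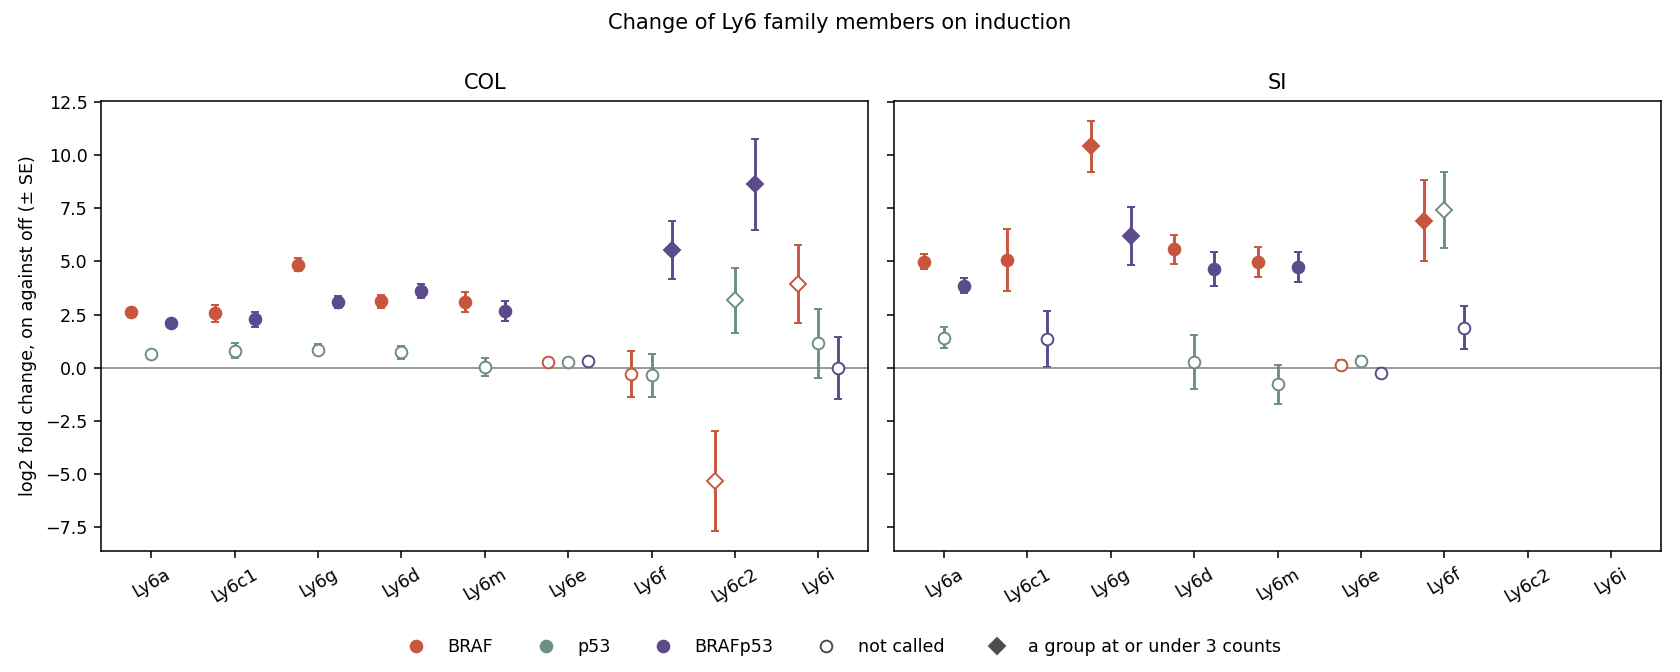
log2 fold change of on against off with its SE (edgeR) for the members tested, COL on the left and SI on the right, by genotype. Filled symbols passed an adjusted p under 0.05, open ones did not, and diamonds have a group at or under 3 counts, where the fitted value depends on the prior count. Members undetected in both groups of an arm are left out. In COL, Ly6a, Ly6c1, Ly6g, Ly6d and Ly6m lie between 2.12 and 4.84 in BRAF and BRAFp53, and Ly6e lies between 0.25 and 0.33.

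Counted over the family, 5 of 9 members tested were called higher in COL BRAF, where 10.3% of all genes tested were, and 7 of 9 in COL BRAFp53 (9.95% of genes). In SI BRAF 6 of 7 were called higher (17.5% of genes), also without the library that carried Xist, and 4 of 7 in SI BRAFp53 (6.98%). No member was called lower, where 9.61% of genes in COL BRAF, 7.76% in COL BRAFp53, 14.2% in SI BRAF and 4.53% in SI BRAFp53 were. Members tested had passed the filter partly through the groups where they were high, and the family was chosen on this contrast, so these counts are a record and no test. With p53R172H alone, 0 of 9 members in COL and 0 of 7 in SI were called by edgeR. Of all genes 27 of 18972 and 0 of 16856 were called in either direction, and 0.0316% and 0.0% higher. At an unadjusted p under 0.05 there were 4 in COL (Ly6a, Ly6c1, Ly6d and Ly6g), beside 8.34% of genes in either direction, and 2 in SI (Ly6a and Ly6f), beside 5.18%. DESeq2 called 2 in COL (Ly6a and Ly6g, 1.71% of genes) and 1 in SI (Ly6f, 0.326%), and limma-voom called 0 and 0 (0.195% and 0.00593%). Without a filter on low counts edgeR called the 4 named in COL (1.87%) and Ly6f in SI (0.576%). Both on libraries lay above both off libraries for 7 of 9 members tested in COL BRAF (29.3% of genes), 7 of 9 in COL BRAFp53 (27.6%), 6 of 9 in COL p53 (19.4%), 6 of 7 in SI BRAF (30.3%), 6 of 7 in SI BRAFp53 (26.6%) and 3 of 7 in SI p53 (18.1%).

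Adding p53R172H to BRAFV600E was read by subtracting the BRAF response from that of BRAFp53. By edgeR 0 of 9 members in COL and 0 of 7 in SI differed, where 0.907% and 8.2% of genes did. At an unadjusted p under 0.05 there were 4 in COL (Ly6a, Ly6g, Ly6c2 and Ly6f, beside 19.0% of genes) and 1 in SI (Ly6a, beside 22.5%). DESeq2 called 1 (Ly6g, beside 7.2% of genes) and 0 (12.4%), and limma-voom 0 and 0 (1.21% and 8.52%). In COL, edgeR called Ly6g with RLE size factors (176 of 18972 genes) and with at least 10 counts in every library (391 of 13479). With no filter on low counts it called Ly6g and Ly6c2 (1312 of 30407). Ly6g was called too without COL BRAFp53 off or on replicate 1. The COL difference was -1.76 ± 0.37 for Ly6g, -0.47 ± 0.21 for Ly6a, -0.28 ± 0.52 for Ly6c1, 0.47 ± 0.41 for Ly6d and -0.41 ± 0.62 for Ly6m on the log2 scale. It ran the other way for Ly6c2 (13.96 ± 3.12) and Ly6f (5.83 ± 1.74), neither called by edgeR with the filter on low counts. Both had 0 to 9 counts in every COL BRAF library and in the COL BRAFp53 off libraries, so that these values depend on the prior count and are no measure of size. COL BRAFp53 on libraries held 48 and 53 counts of Ly6c2 and 24 and 34 of Ly6f. The smaller Ly6g fold in BRAFp53 went with an off level of 32.8 ± 10.1 CPM against 6.11 ± 1.57 in BRAF, not with a lower on level. In SI the difference was -1.13 ± 0.48 for Ly6a, -0.91 ± 1.21 for Ly6d, -0.26 ± 0.996 for Ly6m, -3.70 ± 1.95 for Ly6c1 and -5.03 ± 2.29 for Ly6f, the last from 0 counts in the SI BRAF off libraries and so dependent on the prior count. For Ly6g, at 0 counts in all off libraries of both SI cultures, the difference could not be sized.

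The tissues were compared in their response in 1 fit of all 24 libraries. The log2 response to BRAF was lower in COL than in SI by 2.44 for Ly6a (-2.44 ± 0.33), and the differences for Ly6d (-2.45 ± 0.61) and Ly6f (-7.48 ± 2.21) were called too, so that 3 of 9 members tested were lower, against 7.4% of genes. Ly6d was not called by limma-voom nor without COL BRAF off replicate 1, COL BRAF on replicate 2 or SI BRAF off replicate 1, which leave 1 member (Ly6a), and Ly6f kept its call in 3 of 14 alternatives. For BRAFp53 the response of Ly6a differed by -1.78 ± 0.37, the only member called of 9, against 2.13% of genes lower, and it was not called by limma-voom nor without SI BRAFp53 off or on replicate 2. The difference was -1.96 ± 0.82 for Ly6m and -2.62 ± 1.14 for Ly6c1 in BRAF, neither called here. For Ly6g, with 0 counts in SI off, the fitted value (-5.81 ± 1.98, not called) depends on the prior count. All 3 were called with no filter on low counts, DESeq2 called Ly6g in place of Ly6f, and the fit with the replicate number as a block called Ly6m in place of Ly6f. Those larger SI folds started from off levels of at most 1.004 CPM for Ly6a and 0.616 CPM for Ly6d, and medium, dose and day cannot be told apart from tissue.

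Summed over the 10 members, the family made up 312 ± 1.03 CPM (SD, n = 2) in COL BRAF off and 1497 ± 84.7 on, 962 ± 131 in COL p53 off and 1465 ± 78.6 on, and 476 ± 70.6 in COL BRAFp53 off and 2119 ± 474 on. In SI it was 10.1 ± 1.78 and 73.0 ± 7.59 in BRAF, 24.6 ± 0.896 and 30.6 ± 1.16 in p53, and 34.9 ± 4.38 and 44.4 ± 0.236 in BRAFp53. The makeup changed with the total. In COL BRAF the share of Ly6e counts fell from 40.03% off to 10.02% on, while that of Ly6g went from 1.96% to 11.7%. In SI off libraries Ly6e gave 82.9% of the family's counts in BRAF, 98.4% in p53 and 96.9% in BRAFp53. In SI BRAF on, Ly6a gave 41.2%, Ly6d 27.1%, Ly6e 12.9% and Ly6m 12.5%, and in SI BRAFp53 on, Ly6e still gave 63.4%.

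**Figure D4:**
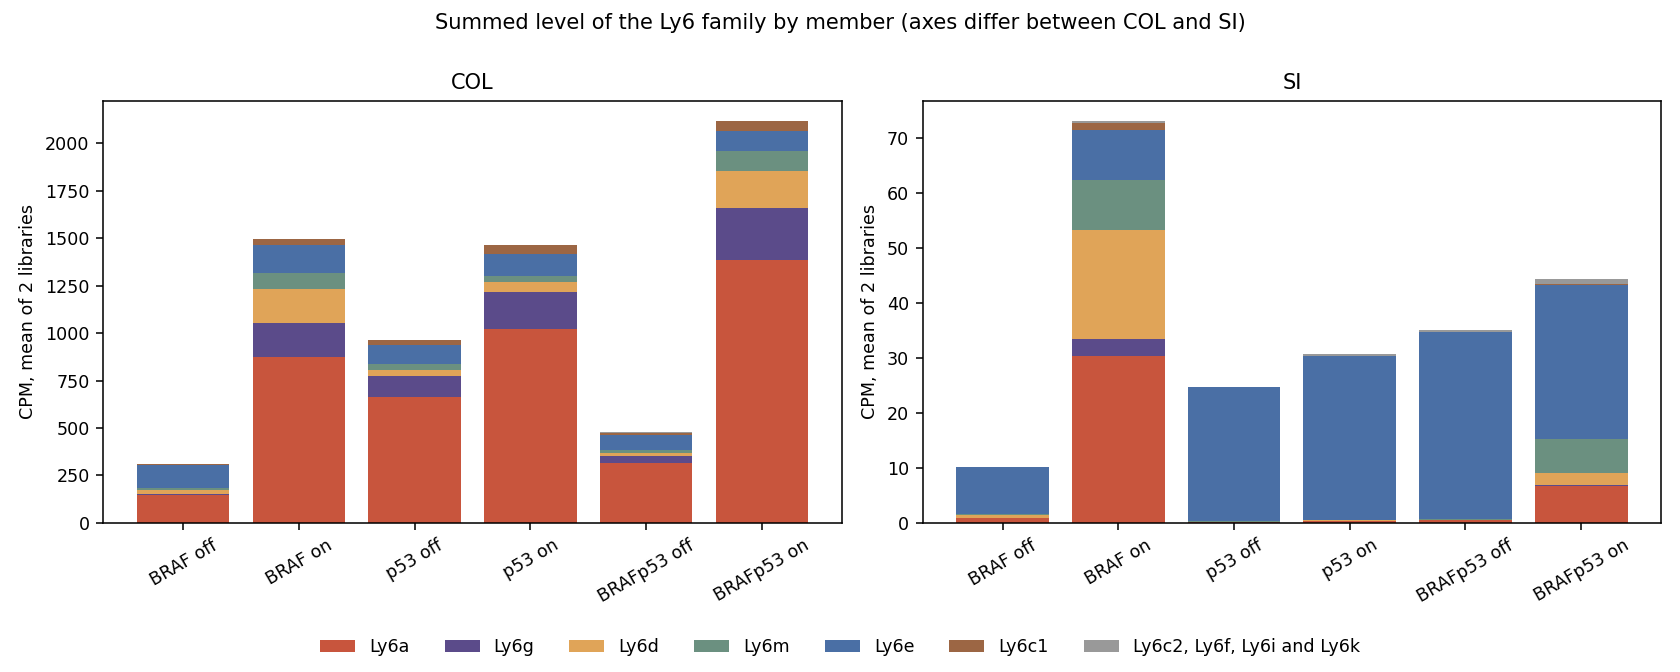
Summed CPM of the family (mean of 2 libraries, bars from 0) stacked by member, for off and on groups of each genotype. The COL and SI axes differ, with COL totals of 312 to 2119 CPM and SI totals of 10.1 to 73.0 CPM. Ly6a gives the largest part of every COL bar, and Ly6e that of each SI bar but BRAF on.

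Across the 12 COL libraries the log2 levels of Ly6a and Ly6g had a Pearson r of 0.99, those of Ly6a and Ly6c1 0.98, and those of Ly6d and Ly6m 0.94. For Ly6a it was 0.82 with Ly6m and 0.77 with Ly6d, while r between Ly6e and the other 5 ran from 0.11 to 0.46. These libraries share cultures and induction, and Ly6a and Ly6c1 share sequence, so the values describe and do not test. Over all 24 libraries and 13134 genes, the named genes closest to Ly6a were Il1rn (r = 0.99), which encodes the interleukin-1 receptor antagonist, Ildr1 (0.99) and Slc17a9 (0.99), a vesicular nucleotide transporter. Those closest to Ly6g were Cwh43 (0.99), Gpr137b (0.99) and Trp53inp2 (0.99). The points share tissue, culture and state, and the COL to SI gap enters each of these values.

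Other genes of the LU-domain superfamily were read from a list of 35, of which 34 had an identifier. In COL BRAF 10 of 19 tested were called higher and 0 lower, in COL BRAFp53 8 of 19 and 0, in SI BRAF 7 of 17 and 2, in SI BRAFp53 6 of 17 and 1, and none in the p53 cultures. The shares of all genes called higher were 10.3%, 9.95%, 17.5% and 6.98%, and those called lower 9.61%, 7.76%, 14.2% and 4.53%. Of 20 tested in a tissue, 13 were called in at least 1 of the 6 arms, a count for which no share over all genes was taken. The list's median log2 fold change was 1.22 in COL BRAF and 1.59 in SI BRAF, beside -0.01 and -0.06 over all genes tested.

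Psca, a GPI-anchored neighbour of the family on chromosome 15, stood in COL BRAF at 8.30 ± 0.486 CPM off (SD, n = 2) and 56.4 ± 0.766 on (log2 2.76 ± 0.31). In SI BRAF it stood at 0.317 ± 0.0586 off and 13.1 ± 3.30 on (log2 5.38 ± 0.43). Gml, also on chromosome 15, went from 0.541 ± 0.288 to 33.2 ± 2.88 CPM in SI BRAF (log2 5.89 ± 0.54) and from 0.328 ± 0.287 to 12.97 ± 1.60 CPM in SI BRAFp53 (log2 5.30 ± 0.56). Gml2 went from 0.751 ± 0.1001 to 22.5 ± 0.490 CPM in SI BRAF (log2 4.91 ± 0.41). These 3 genes were called higher in both SI arms with BRAFV600E. Plaur, the urokinase receptor, stood in COL BRAF at 48.1 ± 0.840 CPM off and 209 ± 26.3 on (log2 2.12 ± 0.20), and in SI BRAF at 6.69 ± 0.759 off and 36.2 ± 14.8 on (log2 2.43 ± 0.30). Ly6g6c went from 1.32 ± 0.808 to 13.6 ± 1.06 CPM in COL BRAF (log2 3.38 ± 0.42). Pinlyp was called in COL BRAFp53 only among the arms where it was tested (log2 3.92 ± 1.11). In COL BRAF its log2 change was 2.54 ± 1.02, and its mean on level was 1.67 CPM in both arms.

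Interferon-responsive genes were read because Ly6e is one of them. Of 28 such genes 11 were called higher and 1 lower in COL BRAF, 3 and 3 in COL BRAFp53, 9 and 1 of 25 in SI BRAF, and 5 and 4 of 25 in SI BRAFp53. Of all genes 10.3%, 9.95%, 17.5% and 6.98% were called higher in these arms and 9.61%, 7.76%, 14.2% and 4.53% lower, so that the COL BRAFp53 counts were near the background. Irf7, a transcription factor of the interferon response, rose by log2 2.24 ± 0.25 in COL BRAF and 2.37 ± 0.19 in SI BRAF. B2m, the light chain of class I MHC, fell in COL BRAF (log2 -0.67 ± 0.13) and rose in SI BRAF (log2 0.87 ± 0.13). Irf1 rose in SI BRAF (log2 0.71 ± 0.14), and Ifitm3 was not called in any arm.

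Genes of the fetal-like and regenerative epithelium, a list that Ly6a is usually grouped with, were called higher in 16 of 20 cases in COL BRAF, 12 of 20 in COL BRAFp53, 12 of 16 in SI BRAF and 12 of 16 in SI BRAFp53, beside 10.3%, 9.95%, 17.5% and 6.98% of all genes, and none was called in the p53 cultures or lower in any arm. Anxa1, an annexin, went from 223 ± 18.1 to 880.2 ± 86.5 CPM in COL BRAF (log2 1.98 ± 0.13), and Krt7, a simple-epithelial keratin, from 389 ± 26.5 to 1149.9 ± 46.0 CPM (log2 1.56 ± 0.18). Il1rn stood in COL BRAF at 186 ± 12.6 CPM off and 1115 ± 168 on, and in SI BRAF at 5.67 ± 1.04 off and 67.5 ± 4.05 on. Clu, clusterin, was called in COL BRAF (log2 1.01 ± 0.31) but not in COL BRAFp53 (log2 0.03 ± 0.31). Before induction 18 of 19 of these genes tested were called higher in COL than in SI (17.0% of all genes), as Ly6a was. Il1rn was also the gene closest to Ly6a in the correlations above, and these lists were chosen with earlier results known.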

How the data were processed

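RNA was sequenced from 24 libraries of COL and SI organoids, in 12 groups of 2 set by the labels. The authors deposited raw read counts per Ensembl gene, 1 table per tissue. Their processing notes name Trimmomatic 0.36, STAR 2.5.2b and the builds mm10 and mm9. The annotation release and strand setting are not given in the sources used here. Of 45706 identifiers 45143 matched GENCODE M21, which gave names and positions.

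Counts were tested with edgeR 4.0.16 in R 4.3.3 (quasi-likelihood, TMM scaling, filterByExpr, Benjamini-Hochberg over all genes tested, threshold 0.05) on the 12 libraries of a tissue. Tissue differences in response used 1 fit of 24 libraries, and off COL against off SI used counts summed per culture. Levels are CPM scaled by TMM within a tissue, and the off tissue comparison and the genes closest to a member used scaling over all 24 libraries. Correlations used log2(CPM + 0.5). DESeq2 1.42.0, limma-voom (limma 3.58.1), other filters and scalings, and leaving out each library were alternatives. The tests were tried on simulated counts. Replicates of a group were compared with each other, and all differed beyond counting noise. Floors cover counting error only.

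The members, the gene lists and the tests were chosen with earlier results of these data known. All members are named. Of other LU-domain genes the text names 6 called in an arm, by largest fold change, and of other lists up to 4 by level. For Ly6a and Ly6g, the members with the highest level per kilobase, it names the 3 genes with the highest r.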

Additional observations from a re-analysis of the deposited data

Results flagged for a closer look

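The response to induction differed between the tissues for 3 members in the BRAF cultures, by edgeR's test of the difference itself over all 24 libraries. The log2 response in COL minus that in SI was -2.44 for Ly6a, -2.45 for Ly6d and -7.48 for Ly6f, the last with at most 19 counts in any SI BRAF library and at most 7 in any COL BRAF library. With 0 counts in both SI BRAF off libraries, the Ly6f value depends on the prior count and is no measure of size, and its call held in 3 of 14 alternatives. The family was chosen on these on against off values, so these calls are a description. In the BRAFp53 cultures it was -1.78 for Ly6a. The tissues also differed in 4-HT dose (3.5 against 0.5 µM) and day of RNA isolation (3 against 8) and in medium, with Wnt3a and a GSK3 inhibitor added for COL, which cannot be told apart from tissue.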

How the results depend on the processing

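No log2 fold change that was called changed sign in the alternatives run (0 of 362 values), while 44 of 676 values of uncalled ones did, among them Ly6e in SI BRAF. Ly6a, Ly6c1, Ly6d, Ly6g and Ly6m kept their calls in COL BRAF and COL BRAFp53 in 11 of 11 alternatives each. With no filter on low counts 4 of 10 members were called in COL p53 (569 of 30407 genes) and 1 of 9 in SI p53 (155 of 26898). In the COL BRAFp53 minus BRAF difference 2 of 10 were called (1312 of 30407). In the COL minus SI differences 7 of 10 were called for BRAF (2580 of 31779) and 2 of 10 for BRAFp53 (1548 of 31779). With at least 10 counts in every library, which left Ly6e as the member tested in SI and in the joint fit, 0 were called in SI BRAF, SI BRAFp53 and both COL minus SI differences. In the COL BRAFp53 minus BRAF difference 1 of 6 was called (391 of 13479 genes). With at least 10 summed counts in every culture, 3 of 3 were called in off COL against off SI (4515 of 14520 genes in either direction). DESeq2 called 2 in COL p53 (324 of 18972 genes), 1 in SI p53 (55 of 16856) and 1 in the COL BRAFp53 minus BRAF difference (1366 of 18972). RLE size factors gave 1 in that difference (176 of 18972). With limma-voom 1 and 0 were called in the COL minus SI differences for BRAF and BRAFp53 (1974 and 677 of 19673). Leaving out a library gave 5 to 5 members in COL BRAF, 5 to 6 in COL BRAFp53, 4 to 6 in SI BRAF, 3 to 4 in SI BRAFp53, 0 to 1 in the COL BRAFp53 minus BRAF difference, 1 to 3 and 0 to 1 in the COL minus SI differences for BRAF and BRAFp53, and, leaving out a culture, 5 to 6 in off COL against off SI. Where no cause is named, the cause was not tested. Over all genes, 27 were called in COL p53 against 569 without a filter and 324 by DESeq2, 0 in SI p53 against 155 and 55, and 0.907% of 18972 genes in the COL BRAFp53 minus BRAF difference against 1312 and 1366 genes. Replicate numbers did not pair the samples, with correlations of same-numbered deviations of -0.0605 to 0.0843 over 6 arms. With the number as a replicate block 6 members were called in COL BRAFp53 and 3 in SI BRAFp53, and the counts of the other comparisons of response stayed at 5, 0, 0, 6, 0, 0, 3 and 1, the 3 in the COL minus SI difference for BRAF holding Ly6m in place of Ly6f. Of log2 fold changes of single members, 946 moved by less than 1 SE or not at all and 92 by at least 1 SE. Summing the 6 similar genes into 1 feature, chosen after seeing the data, gave log2 2.79 in COL BRAF, 0.66 in COL p53, 2.25 in COL BRAFp53, 5.17 in SI BRAF, 2.36 in SI p53 and 3.36 in SI BRAFp53, beside 1.42 for Ly6a alone in SI p53. The planned grouping by protein identity was not run, and coding identity was used in its place. Low members are limited by depth, since 3 counts correspond to 0.0384 to 0.0676 CPM.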
